A study of Homo sapiens with 72 samples.

Results

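Messenger RNA levels of 48 splicing regulators were followed in human HEK293 cells before and after UV irradiation, with and without an inhibitor of the checkpoint kinase ATR. The genes are all those in the deposited table whose symbol is SRSF with a number, begins with HNRNP, or names a CLK kinase, a PTBP protein or a TRA2 protein, and they make up 48 of its 19324 genes. After the filter on low counts 44 of them were tested: 4 CLK kinases, 12 SR proteins, both TRA2 genes, 3 PTB proteins and 23 hnRNP genes. The other 4, HNRNPCL1 to HNRNPCL4, had between 0 and 4 counts in any library and were not tested.

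HEK293 is a line derived from human embryonic kidney, and the study's text gives the WT cells as HEK293 Flp-In T-REx. There were 4 lines: unedited WT cells, 1 line labelled CSB_KO, and the pair STK19_KO1 and STK19_KO2. ERCC6 encodes CSB, which acts with STK19 in transcription-coupled repair, which removes UV lesions that stall RNA polymerase II. Each line was taken untreated (0 h), 3 h after UV, and at 4 h and 20 h after UV with DMSO or with ATRi (VE-821 at 3 µM, in DMSO, added after 3 h of recovery), with 3 replicates in each of the 24 groups. All groups other than 0 h were irradiated, and the sources used here give no UV dose. No unirradiated group was taken at a later time, with DMSO or with ATRi. In a change from 0 h the effects of UV, of time and, at 4 h and 20 h, of DMSO therefore cannot be told apart. Whether ATRi acts alike without UV was not tested. Whether 4 h and 20 h run from the irradiation or from the addition of ATRi or DMSO is not settled by the labels, so ATRi is compared with DMSO only at the same labelled time. WT was the only unedited line and CSB_KO a single line, so a trait of either line and an effect of editing cannot be told apart. The labels do not say whether replicates were separate cultures, so p-values cover only how far these libraries differ, which may be technical.

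SR proteins bind exonic enhancers through RNA recognition motifs and recruit the spliceosome through tails rich in arginine and serine. CLK kinases phosphorylate those tails in the nucleus, which releases SR proteins from nuclear speckles. The hnRNP proteins coat nascent transcripts and often act against SR proteins at the same exon, and PTB proteins are repressors of this kind that bind pyrimidine-rich stretches. Many of these genes control their own messenger RNA through retained introns or exons that send the transcript to nonsense-mediated decay. The values here are sums over all transcripts of a gene, so neither splicing nor the share of productive transcripts was measured. The annotation lists such forms for many of them: of 15 CLK1 transcripts 8 retain an intron and 2 are marked for nonsense-mediated decay, of 15 CLK4 transcripts 7 and 3 respectively, and of 12 SRSF7 transcripts 2 and 6. In bulk RNA, fewer cells with a transcript and less of it per cell cannot be told apart.

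The libraries held between 36503670 and 212861875 counts. The 72 pairs of replicates all differed beyond counting noise (chi-square per gene from 3.6 to 181), and 5 libraries lay apart from both others of their group: replicate 1 of WT at 0 h, of WT at 3 h and of WT at 4 h with DMSO, and in STK19_KO1 replicate 3 at 3 h and replicate 1 at 4 h with ATRi. ERCC6 was at 23.0 to 24.0 CPM in WT and 6.4 to 7.62 CPM in CSB_KO at 0 h. CPM are counts per 1000000 of a library's total after that total is multiplied by the library's scaling factor. These factors, also used in the tests, ran from 0.857 to 1.125. ERCC6 was lower in CSB_KO by edgeR's quasi-likelihood test (log2 change -1.77 ± 0.08, adjusted p = 4.01e-27). STK19 RNA did not pass that test in STK19_KO1 (-0.12 ± 0.07) or STK19_KO2 (-0.15 ± 0.07), so its level does not check those labels. Of markers for HEK293 cells, VIM, KRT8, KRT18, CDH2 and NEFL were at 31.2 CPM or above in every library and NEFM at 0.118 to 2.02 CPM, while HBB and SLC12A1, markers of blood and kidney tubule, reached at most 0.0967 CPM. COL1A1 of fibroblasts and LRP2 of kidney tubule reached 18.2 and 25.7 CPM. Scaling by library size alone in place of the trimmed mean of M values moved the median change of all genes by -0.371 to 0.263 on the log2 scale, and by over 0.1 in 12 of the 35 contrasts. Counts of members, families and lists whose split between higher and lower moved by over 10 percentage points under this scaling are therefore given both ways.

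Before UV the members spanned a wide range of levels. The highest in WT, per kilobase of exon, was HNRNPA1 at 570.0 CPM per kb, followed by HNRNPAB at 296 and HNRNPA2B1 at 200. Among SR proteins SRSF2, a speckle protein that recognises exonic enhancers, was highest at 188 CPM per kb, with SRSF1 at 160.0 and SRSF9 at 102. The CLK kinases were far lower, with CLK2 at 18.3, CLK1 at 4.15, CLK3 at 2.71 and CLK4 at 2.19 CPM per kb. The length used is the union of all annotated exons, those of transcripts that retain an intron included. It was 20.4 kb for CLK3, 9.27 kb for HNRNPA2B1 and 2.14 kb for HNRNPAB, so the order depends partly on the annotation. HNRNPA1L2 and HNRNPA1L3 are near copies of HNRNPA1 and HNRNPUL2-BSCL2 is a read-through of HNRNPUL2, so reads may be shared and their values are uncertain. All 48 genes together took 2.22% of WT counts at 0 h (2.17 to 2.3% over 3 libraries) and 1.82% at 20 h with DMSO (1.8 to 1.85%). The same share in STK19_KO2 was 2.14% at 0 h (2.11 to 2.15%) and 1.5% at 20 h (1.49 to 1.51%), and in neither line did the 0 h and 20 h libraries overlap.

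The 3 knockout lines differed from WT already at 0 h, most clearly in the PTB pair. These 3 comparisons share the same WT libraries, so their values stand side by side and are not independent. In the tests that follow, a gene is called when its adjusted p (Benjamini-Hochberg over 15470 genes, edgeR's quasi-likelihood test) is under 0.05, and a change is a log2 difference ± SE between groups of 3 libraries. In CSB_KO 6 of 44 members were higher and 13 lower, beside 19.1% and 15.7% of all tested genes. In STK19_KO1 16 were higher and 6 lower, beside 29.5% and 19.2%. In STK19_KO2 8 were higher and 15 lower, beside 26.6% and 20.7%. These counts rest partly on single libraries. The 13 lower in CSB_KO became 5 without replicate 1 of WT, and 8 without replicate 1 or replicate 2 of CSB_KO. The 16 higher in STK19_KO1 became 10 without its replicate 3, 9 with only the groups compared in the fit, and 8 (with 13 lower) under library size alone. The 8 higher in STK19_KO2 became 4 without its replicate 2 or with only the groups compared in the fit, and 13 without the libraries that lay apart.

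PTBP2, the neuronal PTB paralogue, was at 106, 93.3 and 95.5 CPM in the WT libraries and at 34.1, 33.5 and 31.4 CPM in CSB_KO. It was at 42.9, 39.8 and 44.6 CPM in STK19_KO1 and 45.5, 44.1 and 44.2 CPM in STK19_KO2. Every knockout library lay below every WT library. The changes were -1.57 ± 0.08 in CSB_KO (adjusted p = 1.84e-24), -1.21 ± 0.08 in STK19_KO1 (adjusted p = 3.97e-20) and -1.14 ± 0.08 in STK19_KO2 (adjusted p = 3.56e-19). PTBP1, the widely expressed repressor that is known to hold PTBP2 down by making its transcript skip an exon, moved the other way. It was at 373, 442 and 437 CPM in WT. The CSB_KO libraries held 648, 669 and 679 CPM, those of STK19_KO1 654, 689.7 and 670.0 CPM and those of STK19_KO2 586, 593 and 649 CPM. All 9 knockout libraries lay above the 3 WT libraries, with changes of 0.67 (CSB_KO), 0.69 (STK19_KO1) and 0.55 (STK19_KO2) (adjusted p = 6.27e-13, 1.09e-13 and 1.65e-10). Whether the levels of the pair are linked in these cells was not tested.

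**Figure D1:**
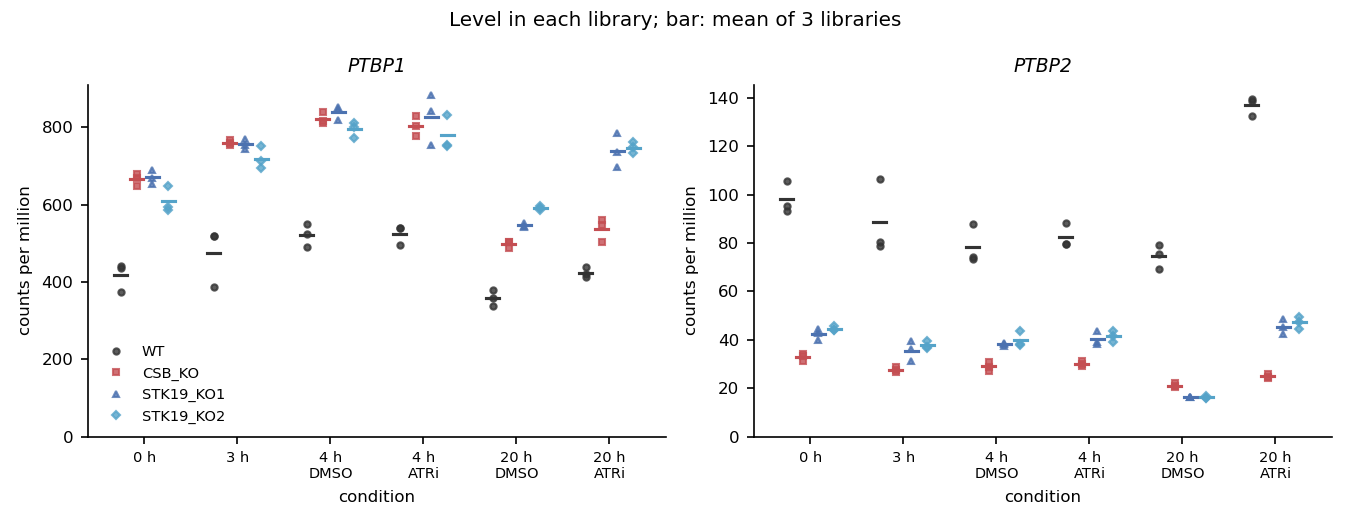
PTBP1 and PTBP2 in CPM for each library (points) and the mean of 3 (bars) in the 4 lines at the 6 conditions. PTBP2 at 0 h is 93.3 CPM or above in WT and 45.5 CPM or below in the 3 knockout lines, while PTBP1 at 0 h is 442 CPM or below in WT and 586 CPM or above in them.

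Other members differed less at 0 h. SRSF4, an SR protein with a long arginine and serine tail, changed by 0.30 (CSB_KO), 0.35 (STK19_KO1) and 0.09 (STK19_KO2), the last of which was not called. TRA2A, an SR-like activator of exons, changed by -0.02 (CSB_KO), -0.27 (STK19_KO1) and -0.50 (STK19_KO2), without a call in CSB_KO. CLK3 changed by -0.30 (CSB_KO), -0.09 (STK19_KO1) and -0.71 (STK19_KO2), without a call in STK19_KO1, and CLK4 was higher in STK19_KO2 (0.53 ± 0.08). SRSF9, one of the smallest SR proteins, was lower in all 3 knockout lines, with changes of -0.25 (CSB_KO), -0.26 (STK19_KO1) and -0.31 (STK19_KO2). HNRNPH3 changed by -0.22 (CSB_KO), -0.13 (STK19_KO1) and -0.45 (STK19_KO2), without a call in STK19_KO1. HNRNPUL1 was higher by 0.24 in CSB_KO and 0.44 in STK19_KO1, HNRNPL by 0.31 in STK19_KO1 and HNRNPH2 by 0.30 in CSB_KO. SRSF12 was lower in STK19_KO1 (-0.46) and in CSB_KO (-0.26), where the call was lost without replicate 1 of WT (-0.14) and without replicate 2 or 3 of CSB_KO. Smaller calls included SRSF7 in CSB_KO (-0.14), HNRNPDL and TRA2B in STK19_KO1 (0.22 and 0.17, the latter lost under library size alone), and HNRNPA2B1 in STK19_KO1 (0.20) and STK19_KO2 (0.16). The near copies of HNRNPA1 gave 0.77 for HNRNPA1L2 in STK19_KO2 and -0.40 for HNRNPA1L3 in CSB_KO. SRSF1, SRSF3 and HNRNPA1 were called in none of the knockout lines at 0 h, and their changes lay between -0.11 and 0.12.

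Within 3 h of UV CLK1, CLK2 and CLK3 and several SR and hnRNP genes rose and SRSF4 and HNRNPDL fell, in all 4 lines. In WT 29 of 44 members were higher and 4 lower than at 0 h, beside 33.6% and 28.8% of all tested genes. In CSB_KO the counts were 24 higher and 6 lower, beside 32% and 29.3%, and in STK19_KO1 18 and 11, beside 29.9% and 30.6%. In STK19_KO2 they were 15 and 12, beside 29.1% and 28.5%, so both shares were near the background there. With library size alone the splits were 13 higher and 14 lower in WT, 18 and 14 in CSB_KO, and 14 and 15 in STK19_KO1. With only the groups compared in the fit WT had 13 higher and 2 lower. The 4 lower in WT became 2 without replicate 1 at 0 h and 7 without replicate 1 at 3 h. Most of these changes were small: calls of at least 1.5-fold numbered 1 higher and 1 lower in WT. The share of all genes at that size is not given here. Over the lines 13 members were called higher in all 4 (CLK1, CLK2, CLK3, SRSF2, SRSF5, SRSF6, SRSF9, PTBP1, HNRNPA0, HNRNPAB, HNRNPH1, HNRNPH2 and HNRNPH3), and 2 lower in all 4. Under library size alone 9 of these 13 were higher in all 4, since HNRNPA0, PTBP1, SRSF2 and SRSF5 were not called in every line, and 9 members were lower in all 4. HNRNPA0 in WT turned from 0.13 to -0.07. The share of all genes called the same way in all 4 lines was not counted, here or for the tallies at later times.

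CLK1 showed the largest rise. In WT it was at 23.6, 20.2 and 20.5 CPM at 0 h and 83.9, 57.0 and 58.8 CPM at 3 h, an increase of 1.63 ± 0.09 (adjusted p = 1.65e-24). Replicate 1 at 3 h stood highest, and it is one of the libraries that lay apart. In CSB_KO CLK1 went from 21.6, 21.7 and 22.9 to 61.1, 53.5 and 57.0 CPM (1.38 ± 0.08), in STK19_KO1 from 25.2, 23.6 and 25 to 57.7, 52.7 and 53.7 CPM (1.15 ± 0.09) and in STK19_KO2 from 25.6, 24.1 and 24.0 to 62.6, 58.7 and 59.0 CPM (1.29 ± 0.08). The 3 h libraries lay above the 0 h libraries in all 4 lines. CLK3 rose by 0.52 (WT), 0.48 (CSB_KO), 0.77 (STK19_KO1) and 0.99 (STK19_KO2), and CLK2 by 0.54 (WT), 0.31 (CSB_KO), 0.36 (STK19_KO1) and 0.73 (STK19_KO2). CLK4 did not share this rise: it changed by 0.02 (WT), -0.33 (CSB_KO), 0.05 (STK19_KO1) and 0.32 (STK19_KO2), called lower in CSB_KO and higher in STK19_KO2, and its WT value turned to -0.191 under library size alone.

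SRSF4 fell in every line. It was at 172, 162 and 161 CPM at 0 h and 106, 100.4 and 103 CPM at 3 h in WT (-0.68 ± 0.05, adjusted p = 1.57e-18). In STK19_KO1 it went from 225, 204 and 201 to 103, 99.7 and 103 CPM (-1.04 ± 0.05). No 3 h library reached the level of a 0 h library in either line, and the falls in CSB_KO and STK19_KO2 were -0.86 and -0.90. SRSF6 and SRSF7, SR proteins that bind exonic enhancers, went the other way. SRSF6 was at 381, 359 and 359.9 CPM at 0 h and 615, 491 and 498 CPM at 3 h in WT, and rose by 0.54 (WT), 0.23 (CSB_KO), 0.47 (STK19_KO1) and 0.64 (STK19_KO2). SRSF7 rose by 0.49 in WT, 0.30 in CSB_KO and 0.26 in STK19_KO1, and its value of 0.10 in STK19_KO2 was not called. SRSF1, the founding SR protein, changed by -0.05 (WT), -0.02 (CSB_KO), -0.21 (STK19_KO1) and -0.22 (STK19_KO2) and was called lower in the STK19 lines, and under library size alone also in WT (-0.26) and CSB_KO (-0.15). SRSF12 had low counts and was called lower in STK19_KO1 (-0.44) and in WT (-0.32), where the call was lost without replicate 1 at 0 h or replicate 3 at 3 h. SRSF3 changed by 0.18 (WT), 0.04 (CSB_KO), 0.00 (STK19_KO1) and -0.19 (STK19_KO2), called higher in WT and lower in STK19_KO2. Its WT value was -0.034 under library size alone and -0.028 without replicate 1 of WT at 3 h.

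Among hnRNP genes HNRNPAB, which encodes an A/B-type hnRNP, rose by 0.40 (WT), 0.40 (CSB_KO), 0.40 (STK19_KO1) and 0.30 (STK19_KO2). HNRNPDL, a D-like hnRNP with 4 of its 10 annotated transcripts marked for decay, was at 457, 406 and 400.4 CPM at 0 h and 391, 291 and 296 CPM at 3 h in WT, a change of -0.37 ± 0.06. Its changes in the knockout lines were -0.52 in CSB_KO, -0.73 in STK19_KO1 and -0.62 in STK19_KO2. HNRNPA1, which represses exons by binding silencers, changed by 0.32 (WT), 0.22 (CSB_KO), 0.15 (STK19_KO1) and -0.02 (STK19_KO2), and the last of these was not called. Library size alone ended the calls in CSB_KO (0.10) and STK19_KO1 (0.09), and the latter was also lost without replicate 2 at 0 h or replicate 3 at 3 h. TRA2A was called in WT alone (0.35), and TRA2B was called higher in WT (0.23) and lower in STK19_KO2 (-0.22). The WT calls of both were lost under library size alone, and that of TRA2B also without replicate 1 at 3 h (0.09). PTBP1 rose by 0.19 (WT), 0.19 (CSB_KO), 0.17 (STK19_KO1) and 0.24 (STK19_KO2), but library size alone gave -0.01 in WT and ended the calls in CSB_KO and STK19_KO1, and the WT call was lost without replicate 1 at 0 h or replicate 2 or 3 at 3 h. PTBP2 was called lower in the 3 knockout lines (-0.26, -0.26 and -0.24), and PTBP3 in WT (-0.21), STK19_KO1 (-0.42) and STK19_KO2 (-0.30). PTBP3 in WT was no longer called without replicate 1 at 0 h or replicate 2 or 3 at 3 h, nor by DESeq2. PTBP2 in STK19_KO1 was not called without replicate 3 at 0 h or replicate 2 at 3 h, and PTBP1 there without replicate 1 at 0 h or replicate 2 at 3 h.

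The stretches of 150 bases upstream of the annotated start are shown for 3 members that rose early (CLK1, SRSF6, SRSF7) and 2 that fell (SRSF4, HNRNPDL), so that genes moving in opposite directions can be read side by side. They were chosen with these results known, and other members of interest whose RefSeq window does not hold the whole stretch are not shown. The sequences are RefSeq's, on GRCh38.p14, read 5′ to 3′ on the gene's strand. They lie at chr2:200864745-200864894 (minus strand) for CLK1, chr20:43457743-43457892 (plus) for SRSF6, chr2:38751495-38751644 (minus) for SRSF7, chr1:29181988-29182137 (minus) for SRSF4 and chr4:82430463-82430612 (minus) for HNRNPDL. Capitals mark matches on either strand to the GC box GGGCGG, the CCAAT box, the E-box CACGTG, the TATA-type motif TATAAA, the ETS-type motif CCGGAAG, the cyclic AMP response element TGACGTCA and its shorter form TGACG, which overlaps the longer one.
CLK1: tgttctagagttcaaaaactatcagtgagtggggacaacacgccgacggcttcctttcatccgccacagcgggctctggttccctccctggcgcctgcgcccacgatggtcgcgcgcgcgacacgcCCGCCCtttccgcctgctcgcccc
SRSF6: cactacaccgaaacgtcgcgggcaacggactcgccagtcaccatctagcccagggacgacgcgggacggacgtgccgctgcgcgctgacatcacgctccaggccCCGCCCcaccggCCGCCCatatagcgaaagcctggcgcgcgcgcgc
SRSF7: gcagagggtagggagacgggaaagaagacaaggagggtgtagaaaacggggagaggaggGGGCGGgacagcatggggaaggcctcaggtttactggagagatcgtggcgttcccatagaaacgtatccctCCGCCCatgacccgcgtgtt
SRSF4: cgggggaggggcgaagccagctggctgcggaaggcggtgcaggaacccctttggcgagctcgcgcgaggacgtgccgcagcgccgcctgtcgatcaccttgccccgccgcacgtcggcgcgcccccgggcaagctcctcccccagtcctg
HNRNPDL: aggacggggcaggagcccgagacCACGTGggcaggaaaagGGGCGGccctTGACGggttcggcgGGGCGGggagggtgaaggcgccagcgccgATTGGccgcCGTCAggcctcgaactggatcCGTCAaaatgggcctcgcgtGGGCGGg
The 3 early risers and HNRNPDL hold GGGCGG or its complement, and the SRSF4 stretch holds none of the motifs searched. Only HNRNPDL of these 5 holds TGACG, and it holds CCAAT and also the E-box CACGTG, again alone among the 5. Of the 48 members 43 have a RefSeq window and 26 hold the whole stretch. GGGCGG was found in 14 of these 26 and in 36.8% of 35116 human windows of the same length, CCAAT in 13 and 23.5%, TGACG in 9 and 15.4%, CACGTG in 2 and 4.57%, and TATAAA in 2 and 6.71%. CCGGAAG and TGACGTCA were found in 0 of 26 and in 6.85% and 1.4% of all windows. The stretches of members lie upstream of the outermost annotated start, but those of all windows lie upstream of each window's own start. The positions thus differ, and the shares are only a rough guide. Among the 26 are HNRNPUL2 and its read-through, whose stretches overlap and are counted separately, and the untested HNRNPCL1, HNRNPCL2 and HNRNPCL4. A match describes letters and not a bound site.

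**Figure D2:**
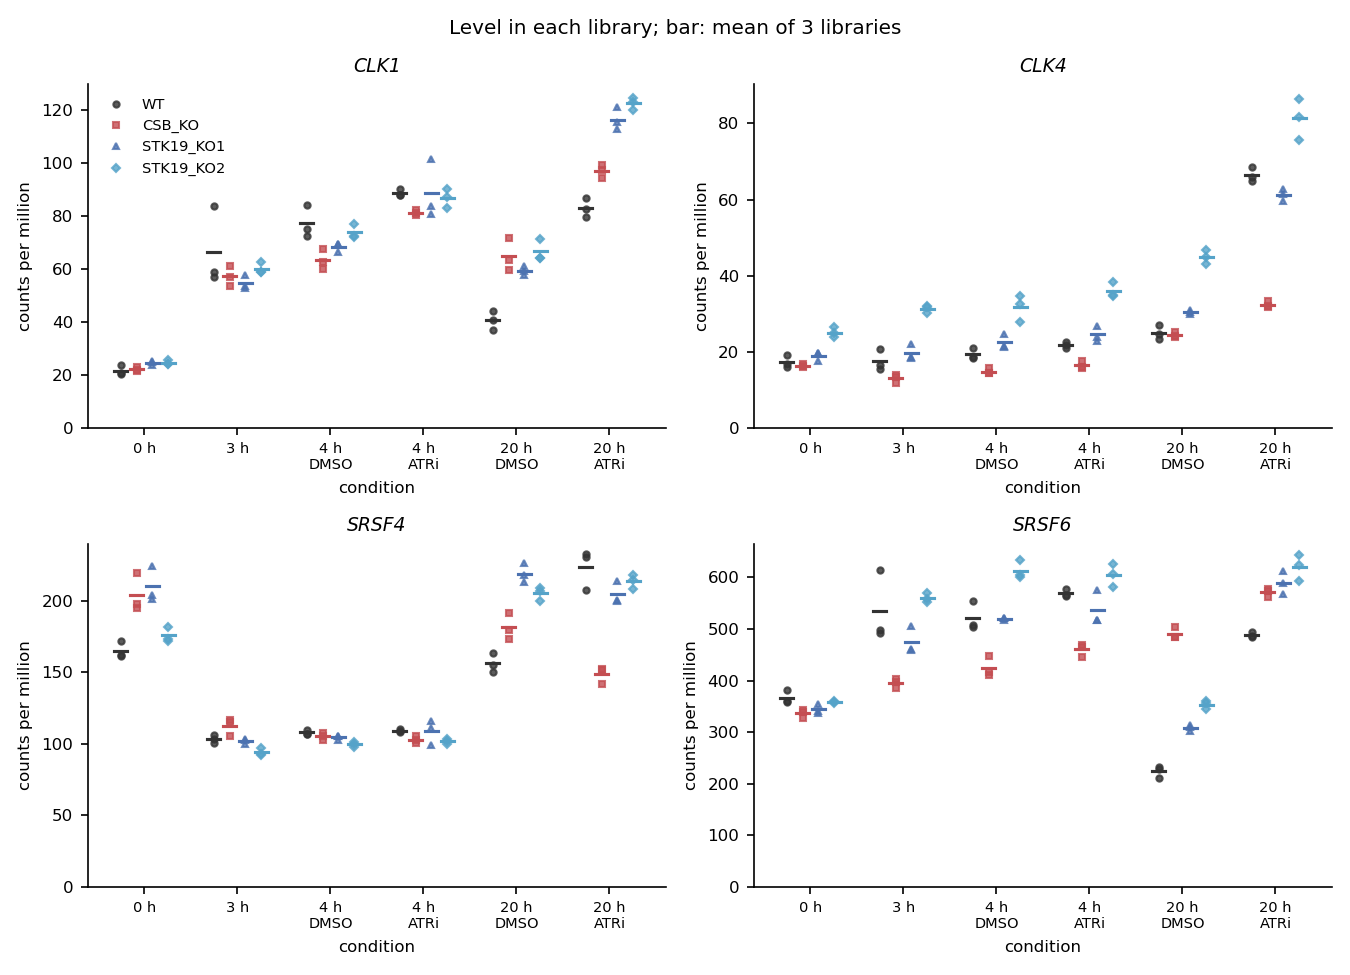
CLK1, CLK4, SRSF4 and SRSF6 in CPM for each library (points) and the mean of 3 (bars) in the 4 lines at the 6 conditions. CLK1 is higher at 3 h than at 0 h and SRSF4 lower in every line, and SRSF6 at 20 h with DMSO is below its 0 h level in WT and above it in CSB_KO.

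The lines were then compared in the size of their 3 h change. These interaction contrasts subtract the change in WT from that in CSB_KO, or from the mean change of STK19_KO1 and STK19_KO2, and they share the WT libraries. For CSB_KO 0 members were higher and 5 lower than in WT, beside 1.48% and 8.3% of all genes. At an unadjusted p under 0.05 1 was higher and 11 lower, and DESeq2 called 0 and 7. The 3 largest were CLK4 (-0.35 ± 0.12, adjusted p = 0.047), SRSF11 (-0.33 ± 0.10, adjusted p = 0.0258) and SRSF6 (-0.31 ± 0.07, adjusted p = 0.00148), by edgeR's quasi-likelihood test. These 5 calls were fragile: leaving out 1 library gave between 1 call (without replicate 3 of WT at 0 h or replicate 2 of CSB_KO at 3 h) and 8 (without replicate 1 of WT at 0 h or replicate 2 of WT at 3 h). It gave 2 without replicate 2 of WT at 0 h, replicate 1 of WT at 3 h or replicate 3 of CSB_KO at 3 h, and 3 without any 1 of the CSB_KO libraries at 0 h. Library size alone left 1 higher and 1 lower, and with only the groups compared in the fit 0 were lower. Without replicate 1 of WT at 3 h the CLK4 and SRSF11 differences were -0.21 and -0.16 and were not called.

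For the STK19 lines 1 member was higher and 21 lower, beside 10.1% and 17.1%. With only the groups compared in the fit 2 were lower. The largest were CLK1 (-0.41 ± 0.10, adjusted p = 0.00188 by edgeR), TRA2B (-0.37 ± 0.07, adjusted p = 3.09e-05) and SRSF11 (-0.37 ± 0.09, adjusted p = 0.00119), with CLK3 the only one higher (0.36 ± 0.07). The count rested largely on replicate 1 of WT at 3 h, without which 9 were lower and 4 higher. The single higher call became 3 without replicate 1 of WT at 0 h, and 2 without replicate 2 of WT at 3 h or replicate 3 of STK19_KO1 at 0 h. Under library size alone the split turned to 10 higher and 1 lower, and the CLK1 and SRSF11 differences lost their calls, as they did without replicate 1 of WT at 3 h (-0.21 and -0.20).

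At 4 h with DMSO the picture was close to that at 3 h, with a larger rise of CLK1 in every line. In WT 24 members were higher and 6 lower than at 0 h, beside 35% and 31.3% of all genes, and 11 and 13 under library size alone. In CSB_KO 26 were higher and 5 lower, beside 33.6% and 30.2%, and 21 and 13 under library size alone. The 5 lower in CSB_KO became 3 without its replicate 1 at 0 h and 9 with only the groups compared in the fit. In STK19_KO1 17 and 11 were called, beside 27.9% and 30%, and in STK19_KO2 17 and 11, beside 31.6% and 29.8%. CLK1 was at 84.4, 75 and 72.4 CPM in WT and had changed by 1.85 (WT), 1.52 (CSB_KO), 1.47 (STK19_KO1) and 1.59 (STK19_KO2). CLK3 had changed by 0.77 (WT), 0.64 (CSB_KO), 0.78 (STK19_KO1) and 1.21 (STK19_KO2), and CLK2 by 0.70 (WT), 0.25 (CSB_KO), 0.34 (STK19_KO1) and 0.77 (STK19_KO2). SRSF5, an SR protein with 8 of its 19 annotated transcripts retaining an intron, had changed by 0.32 (WT), 0.45 (CSB_KO), 0.65 (STK19_KO1) and 0.86 (STK19_KO2), and library size alone ended its call in WT (0.12). The changes of SRSF6 were 0.51 (WT), 0.34 (CSB_KO), 0.60 (STK19_KO1) and 0.77 (STK19_KO2), and those of SRSF4 were -0.61 (WT), -0.95 (CSB_KO), -1.01 (STK19_KO1) and -0.82 (STK19_KO2). HNRNPDL had changed by -0.65 (WT), -0.51 (CSB_KO), -0.76 (STK19_KO1) and -0.53 (STK19_KO2). PTBP3 had changed by -0.33 (WT), -0.21 (CSB_KO), -0.38 (STK19_KO1) and -0.47 (STK19_KO2), and the CSB_KO call was lost without its replicate 1 or 3 at 0 h or its replicate 2 at 4 h. HNRNPLL, a relative of HNRNPL, was called lower in 3 lines (-0.29 in WT, -0.43 in STK19_KO1 and -0.48 in STK19_KO2). All 13 members higher in every line at 3 h were so at 4 h, together with SRSF7, and 10 of these 14 were so under library size alone.

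By 20 h with DMSO CLK1, CLK3 and CLK4 were above their 0 h level in every line, while in each line most hnRNP genes were called lower. Of the 23 hnRNP genes 17 were lower and 2 higher in WT. For CSB_KO these counts were 12 and 8, for STK19_KO1 17 and 4, and for STK19_KO2 16 and 4. Library size alone gave 15 lower and 6 higher in CSB_KO. The 8 of 23 higher in CSB_KO are near the 38.3% of all genes higher there. In WT 7 members were higher and 27 lower than at 0 h, beside 30% and 25.4% of all genes. In CSB_KO 18 were higher and 20 lower, beside 38.3% and 40.5%, so both shares were near the background, and library size alone gave 12 and 28. In STK19_KO1 8 (14 with only the groups compared in the fit) and 27 were called, beside 32.1% and 37%, and in STK19_KO2 12 and 24, beside 33.8% and 37.8%. Called lower in all 4 were 12 members: SRSF1, SRSF3, PTBP2, HNRNPA1, its near copy HNRNPA1L3, HNRNPA3, HNRNPD, HNRNPDL, HNRNPL, HNRNPM, HNRNPR and HNRNPU. All 12 remained so under library size alone, which gave 18. The share of all genes called lower in all 4 was not counted, so the 12 cannot be set against it. Another 13 were called higher in some lines and lower in others.

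**Figure D3:**
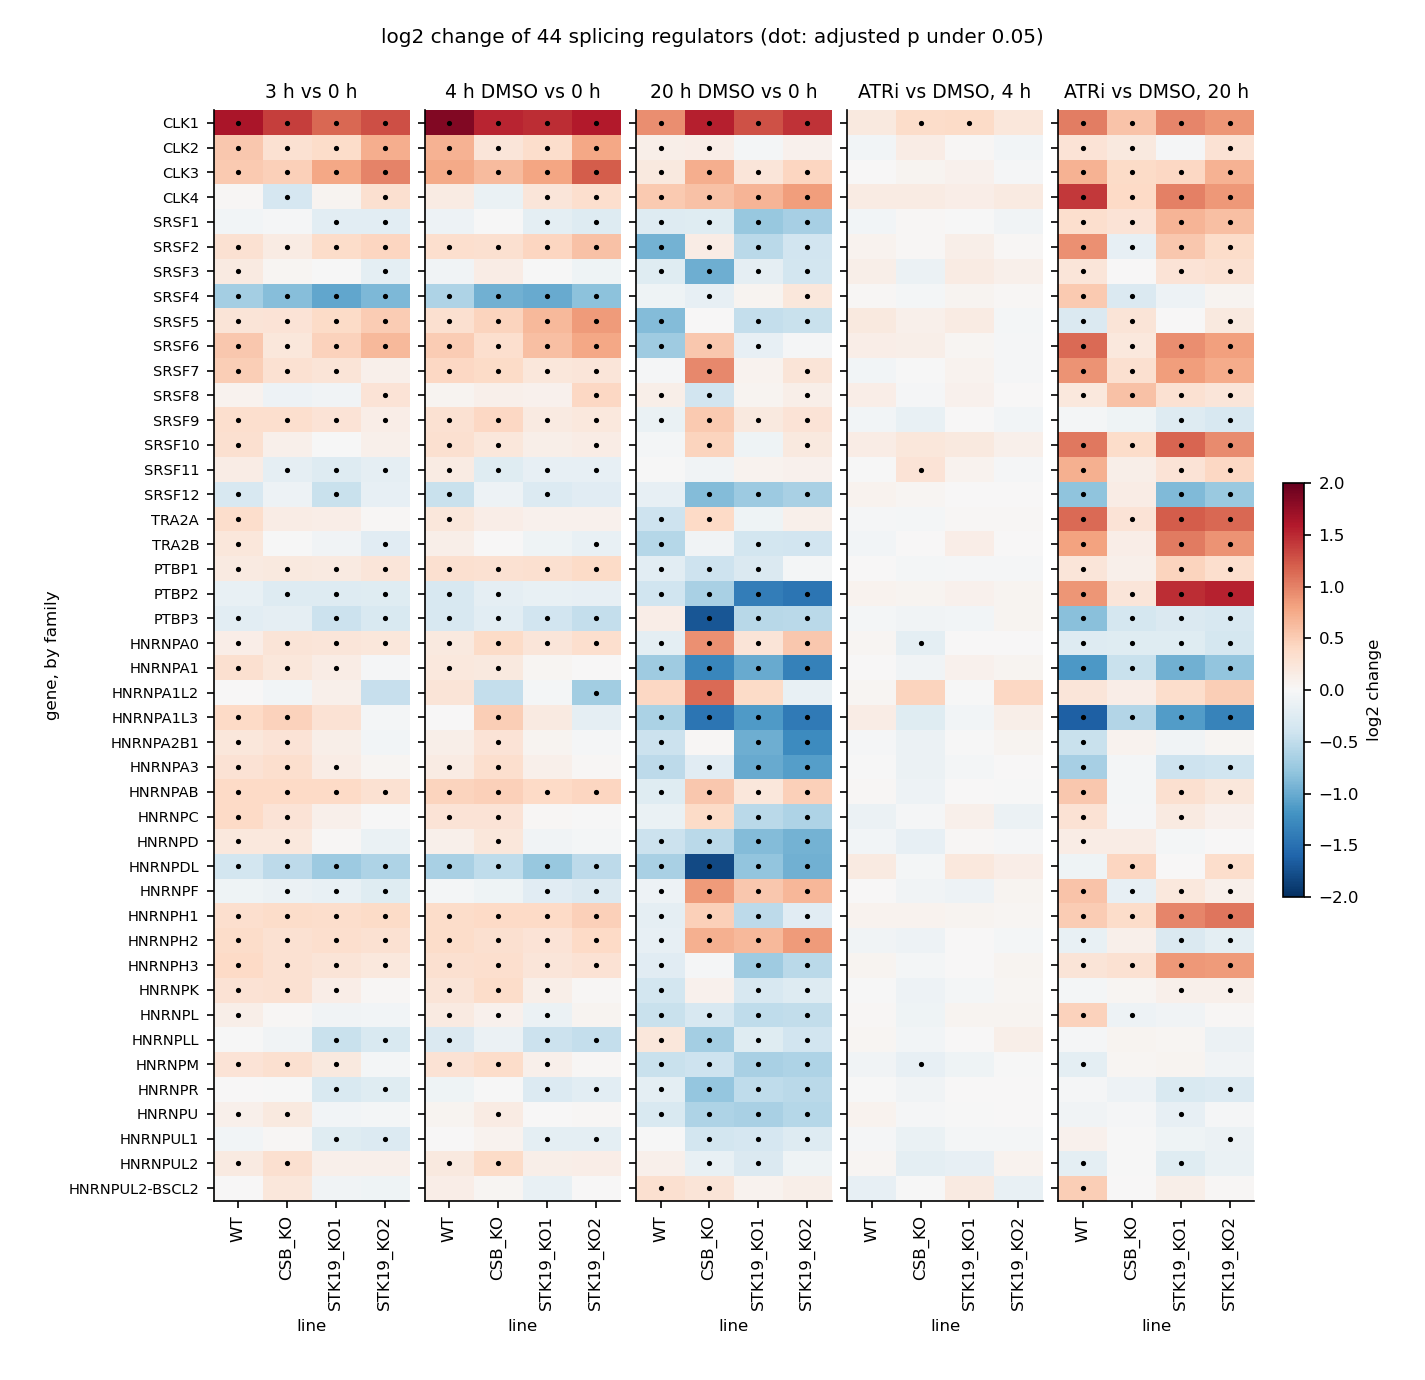
Log2 change of the 44 tested members (rows, by family) in the 4 lines for 5 comparisons (columns), coloured from lower to higher, with a dot where the adjusted p by edgeR is under 0.05. CLK1 is higher after UV at 3 h, 4 h and 20 h in every line, HNRNPA1 is lower at 20 h in every line, and few dots appear for ATRi at 4 h.

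HNRNPA1, the most abundant member per kilobase, was at 3102, 2730.1 and 2867 CPM at 0 h and 1795, 1779 and 1738 CPM at 20 h in WT. In CSB_KO it went from 2677, 2667 and 2878 to 1127, 1112 and 1101 CPM, and in STK19_KO2 from 2767, 2667 and 2615 to 1037, 1059 and 1073 CPM. Every 20 h library lay below every 0 h library of its line. The changes were -0.71 (WT), -1.30 (CSB_KO), -1.01 (STK19_KO1) and -1.34 (STK19_KO2), and the adjusted p by edgeR in WT was 2.72e-17. HNRNPA3 changed by -0.52 (WT), -0.23 (CSB_KO), -1.0 (STK19_KO1) and -1.10 (STK19_KO2). HNRNPDL was at 409, 397 and 401 CPM at 0 h and 114, 118 and 114 CPM at 20 h in CSB_KO, a change of -1.8 ± 0.06, and its changes elsewhere were -0.65 in WT, -0.78 in STK19_KO1 and -0.96 in STK19_KO2. HNRNPF and HNRNPH2, which bind runs of guanine, rose in the knockout lines. HNRNPF changed by -0.10 (WT), 0.85 (CSB_KO), 0.53 (STK19_KO1) and 0.66 (STK19_KO2), and HNRNPH2 by -0.17 (WT), 0.71 (CSB_KO), 0.65 (STK19_KO1) and 0.85 (STK19_KO2), each called lower in WT. The WT call of HNRNPF was lost under library size alone, with relative log expression factors and without replicate 3 at 0 h or at 20 h, and that of HNRNPH2 under library size alone and without replicate 1 at 0 h. HNRNPA2B1, a close relative of HNRNPA1, changed by 0.03 in CSB_KO, where it was not called (under library size alone -0.28, called lower), and was lower in WT (-0.43), STK19_KO1 (-0.98) and STK19_KO2 (-1.26).

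**Figure D4:**
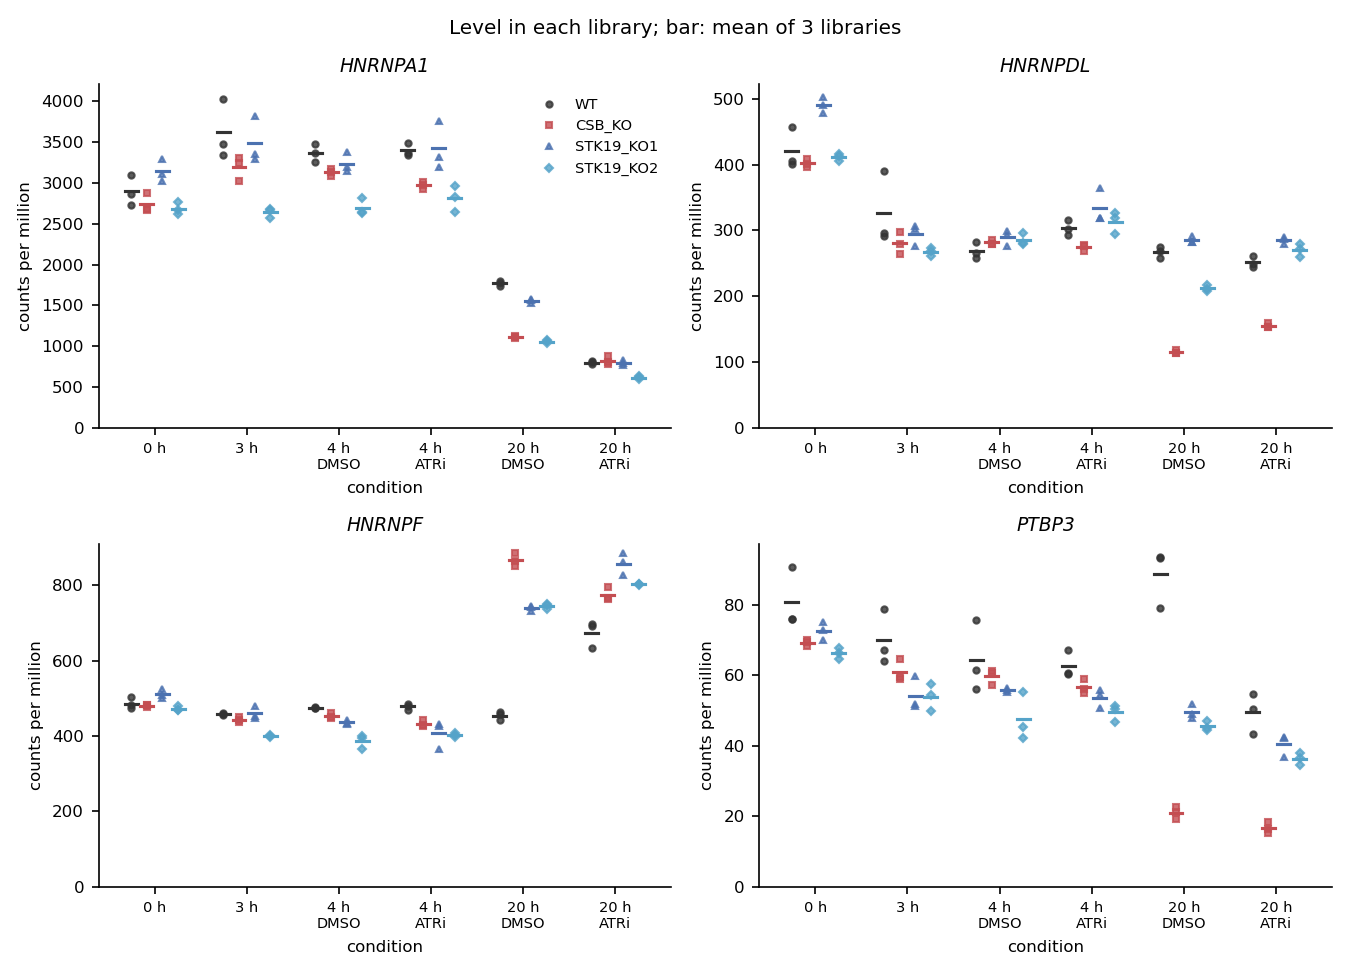
HNRNPA1, HNRNPDL, HNRNPF and PTBP3 in CPM for each library (points) and the mean of 3 (bars) in the 4 lines at the 6 conditions. HNRNPA1 at 20 h with DMSO lies below its 0 h level in every line, and PTBP3 at 20 h with DMSO is lowest in CSB_KO, at 19.3 to 22.6 CPM.

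Among the kinases CLK1 stood at 44.3, 37.0 and 40.8 CPM at 20 h in WT and 63.5, 71.8 and 59.6 CPM in CSB_KO, with changes from 0 h of 0.92 (WT), 1.56 (CSB_KO), 1.27 (STK19_KO1) and 1.44 (STK19_KO2). CLK4 changed by 0.52 (WT), 0.59 (CSB_KO), 0.68 (STK19_KO1) and 0.84 (STK19_KO2) and CLK3 by 0.20 (WT), 0.72 (CSB_KO), 0.24 (STK19_KO1) and 0.43 (STK19_KO2). CLK2 changed by 0.11 (WT), 0.13 (CSB_KO), -0.03 (STK19_KO1) and 0.09 (STK19_KO2), called higher in WT and CSB_KO, and the CSB_KO value turned to -0.18, called lower, under library size alone. Both sets of CLK1 libraries lay above those of 0 h. Of the 12 SR genes 6 were lower and 1 higher in WT. For CSB_KO these counts were 5 and 5, for STK19_KO1 6 and 1, and for STK19_KO2 5 and 5. The shares of all genes stand above, and 5 of 12 each way in CSB_KO is near them. Library size alone gave 8 lower and 3 higher in CSB_KO and 5 and 3 in STK19_KO2. SRSF6 was at 231, 211 and 229 CPM at 20 h in WT, below its 0 h libraries, and at 484, 504 and 485 CPM in CSB_KO, above the 339, 328 and 343 CPM at 0 h. Its changes were -0.71 (WT), 0.55 (CSB_KO), -0.16 (STK19_KO1) and -0.02 (STK19_KO2), the last not called. SRSF2 changed by -0.94 (WT), 0.14 (CSB_KO), -0.53 (STK19_KO1) and -0.38 (STK19_KO2) and SRSF5 by -0.86 (WT), 0.01 (CSB_KO), -0.48 (STK19_KO1) and -0.45 (STK19_KO2), where the CSB_KO value of SRSF5 was not called. Under library size alone both were lower in CSB_KO, SRSF2 at -0.16 against a called rise otherwise, and SRSF5 at -0.29. SRSF7 changed by -0.02 (WT), 0.96 (CSB_KO), 0.07 (STK19_KO1) and 0.25 (STK19_KO2), with calls in CSB_KO and STK19_KO2. SRSF1 changed by -0.26 (WT), -0.23 (CSB_KO), -0.76 (STK19_KO1) and -0.67 (STK19_KO2), and SRSF3 by -0.24 (WT), -0.97 (CSB_KO), -0.18 (STK19_KO1) and -0.36 (STK19_KO2). TRA2A changed by -0.41 (WT), 0.39 (CSB_KO), -0.09 (STK19_KO1) and 0.10 (STK19_KO2), with calls in WT and CSB_KO, of which the CSB_KO call was lost under library size alone (0.09). TRA2B changed by -0.58 (WT), -0.07 (CSB_KO), -0.36 (STK19_KO1) and -0.38 (STK19_KO2), with calls in WT and both STK19 lines, and in CSB_KO under library size alone (-0.38).

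The PTB genes changed by different amounts in different lines, and CSB_KO was not tested against the STK19 lines. PTBP3, the third PTB paralogue, was at 70.0, 68.4 and 69.4 CPM at 0 h and 21.2, 22.6 and 19.3 CPM at 20 h in CSB_KO (-1.72 ± 0.09, adjusted p = 1.12e-24 by edgeR). It was at 90.7, 76.1 and 76.0 CPM at 0 h and 93.4, 79.0 and 93.5 CPM at 20 h in WT (0.13, not called). The 20 h libraries of CSB_KO lay far below those of 0 h, and the WT change did not pass the test (under library size alone it was 0.20 and called higher). In the STK19 lines the mean change of PTBP3 was also more negative than in WT (difference -0.68 ± 0.11, called). PTBP2 in STK19_KO1 went from 42.9, 39.8 and 44.6 to 16.2, 16.3 and 16.3 CPM and in STK19_KO2 from 45.5, 44.1 and 44.2 to 16.0, 16.2 and 16.6 CPM, so the 20 h libraries of both lines lay below those of 0 h. Its changes were -0.40 (WT), -0.65 (CSB_KO), -1.38 (STK19_KO1) and -1.45 (STK19_KO2). PTBP1 changed by -0.22 (WT), -0.42 (CSB_KO), -0.30 (STK19_KO1) and -0.04 (STK19_KO2), the last not called.

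These differences between lines were tested as interactions. Relative to WT, 20 members changed more positively in CSB_KO and 14 more negatively, beside 30.9% and 36.3% of all genes, and 12 and 23 under library size alone. The largest positive differences were SRSF6 (1.26 ± 0.07, adjusted p = 4.58e-23 by edgeR), HNRNPA0 (1.11 ± 0.06) and SRSF2 (1.08 ± 0.06). The largest negative ones were PTBP3 (-1.85 ± 0.13, adjusted p = 1.18e-19), HNRNPDL (-1.15 ± 0.09) and HNRNPLL (-0.91 ± 0.09). For the STK19 lines 14 and 19 were called, beside 22.8% and 32.7%, and 10 and 23 under library size alone. HNRNPH2 (0.92 ± 0.07), HNRNPF (0.69 ± 0.05) and SRSF6 (0.62 ± 0.06) were the most positive. PTBP2 (-1.02 ± 0.09, adjusted p = 3.53e-14 by edgeR), HNRNPA2B1 (-0.69 ± 0.07) and PTBP3 (-0.68 ± 0.11) were the most negative.

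Between 4 h and 20 h with DMSO most called members went down. In WT 5 were higher and 30 lower at 20 h, beside 34.1% and 35.5% of all genes, and 13 and 25 under library size alone. In CSB_KO 11 and 25 were called, beside 34.6% and 37.2%, with 7 and 27 under library size alone and 17 higher with only the groups compared in the fit and (with 24 lower) with relative log expression factors. In STK19_KO1 6 and 31 were called, beside 32.3% and 33.4%, and in STK19_KO2 7 and 27, beside 31.6% and 34.9%. SRSF4 recovered in this interval, from 107, 109.6 and 107 to 155, 149.8 and 164 CPM in WT, and rose by 0.53 (WT), 0.79 (CSB_KO), 1.07 (STK19_KO1) and 1.04 (STK19_KO2). CLK4 rose by 0.36 (WT), 0.72 (CSB_KO), 0.44 (STK19_KO1) and 0.50 (STK19_KO2), so CLK4 and SRSF4 were the members called higher in all 4 lines. CLK2 was among 16 called lower in all 4, and changed by -0.58 (WT), -0.12 (CSB_KO), -0.38 (STK19_KO1) and -0.68 (STK19_KO2). CLK1 fell in WT, from 84.4, 75 and 72.4 to 44.3, 37.0 and 40.8 CPM (-0.92 ± 0.08). It was called lower in STK19_KO1 as well (-0.20), but not without replicate 1 or 3 at 4 h or replicate 1 at 20 h, and it was not called in CSB_KO (0.04) or STK19_KO2 (-0.15, though -0.17 and called under library size alone). SRSF2 changed by -1.28 (WT), -0.17 (CSB_KO), -0.97 (STK19_KO1) and -0.97 (STK19_KO2) and SRSF5 by -1.18 (WT), -0.44 (CSB_KO), -1.13 (STK19_KO1) and -1.31 (STK19_KO2). HNRNPA1 changed by -0.93 (WT), -1.49 (CSB_KO), -1.06 (STK19_KO1) and -1.35 (STK19_KO2), HNRNPA3 by -0.69 (WT), -0.57 (CSB_KO), -1.10 (STK19_KO1) and -1.13 (STK19_KO2) and HNRNPF by -0.06 (WT), 0.94 (CSB_KO), 0.76 (STK19_KO1) and 0.95 (STK19_KO2), the WT value of HNRNPF without a call.

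ATRi moved few members at 4 h and many at 20 h. At 4 h 0 members were higher and 0 lower in WT, beside 2.03% and 0.627% of all genes. At an unadjusted p under 0.05 the counts were 7 and 0, DESeq2 called 0 and 0, and 9 were higher without the libraries that lay apart. In STK19_KO2 0 and 0 were called, beside 0.194% and 0.0259%, with 3 and 0 at an unadjusted p under 0.05 and 0 and 0 by DESeq2. In STK19_KO1 1 was higher and 0 lower, beside 0.776% and 0.129%, with 7 and 3 at an unadjusted p under 0.05 and 1 and 0 by DESeq2. In CSB_KO 2 and 2 were called, beside 2.7% and 0.278%. The gene called in STK19_KO1 was CLK1, at 69.5, 66.4 and 69.3 CPM with DMSO and 101, 81.0 and 83.7 CPM with ATRi (0.38 ± 0.08, adjusted p = 0.00497 by edgeR). Replicate 1 with ATRi, one of the libraries that lay apart, stood highest, and without it the change was 0.27 and was not called. The call was also lost without replicate 2 with DMSO and with only the groups compared in the fit.

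In CSB_KO CLK1 was at 67.4, 60.0 and 62.6 CPM with DMSO and 80.4, 82.4 and 81.2 CPM with ATRi at 4 h (0.36 ± 0.08, adjusted p = 0.00364 by edgeR). SRSF11, an SR-related protein, was higher by 0.27 ± 0.07, and HNRNPA0 and HNRNPM were lower (-0.19 and -0.16). SRSF11 and HNRNPM were named after their values were seen. The counts became 1 higher without replicate 2 or 3 with DMSO or replicate 1 or 2 with ATRi of CSB_KO, and 1 lower without replicate 2 with DMSO or replicate 3 with ATRi. Without the libraries that lay apart, none of them of this comparison, 5 were higher and 8 lower, and with only the groups compared in the fit 7 and 12. CLK1 at 4 h was 0.20 in WT and 0.23 in STK19_KO2, neither called. In the interaction with WT, 0 and 1 members were called for CSB_KO, beside 2.33% and 0.873%, and 0 and 0 for the STK19 lines, beside 0.00646% and 0%. The counts at an unadjusted p under 0.05 were 2 and 6 for CSB_KO and 0 and 0 for the STK19 lines, and DESeq2 called 0 and 1, and 0 and 0. The call was HNRNPA0 (-0.23 ± 0.06, adjusted p = 0.012 by edgeR), and it was lost without replicate 1 of WT with DMSO.

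With ATRi at 20 h CLK1, CLK3, CLK4 and both TRA2 genes were higher in WT and in both STK19 lines. Of the 12 SR genes 9 were higher and 2 lower in WT, 8 and 2 in STK19_KO1, 9 and 2 in STK19_KO2, and 6 and 2 in CSB_KO. In WT 25 members were higher with ATRi than with DMSO and 11 lower, beside 30.2% and 33.7% of all genes, and 21 and 16 under library size alone. In CSB_KO 15 were higher and 8 lower, beside 14.1% and 17.5%. In STK19_KO1 21 and 11 were called, beside 31.5% and 30.1%, and in STK19_KO2 23 and 10, beside 30.5% and 27.7%. Calls of at least 1.5-fold numbered 11 higher and 5 lower in WT, and 0 and 0 in CSB_KO. They describe the members alone, since the share of all genes at that size is not given here. Of the 23 hnRNP genes 8 were higher and 8 lower in WT. Library size alone gave 7 and 12 there, and 7 higher and 3 lower SR genes. In all 4 lines 12 members were called higher (CLK1, CLK3, CLK4, SRSF1, SRSF6, SRSF7, SRSF8, SRSF10, TRA2A, PTBP2, HNRNPH1 and HNRNPH3) and 4 lower (PTBP3, HNRNPA0, HNRNPA1 and HNRNPA1L3). All but SRSF8 were so under library size alone as well. The matching shares of all genes were not counted. Another 5 were called in opposite directions between lines: SRSF2, SRSF4, SRSF5, HNRNPF and HNRNPL.

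CLK4 was at 27.0, 23.2 and 24.6 CPM with DMSO and 68.5, 65.9 and 64.9 CPM with ATRi in WT (1.41 ± 0.08, adjusted p = 3.11e-23 by edgeR). In CSB_KO it was at 25.3, 24.1 and 24.0 and 33.4, 31.7 and 32.1 CPM (0.41 ± 0.08), and in STK19_KO1 at 29.9, 30.5 and 30.9 and 62.7, 59.6 and 61.4 CPM (1.01 ± 0.08). The ATRi libraries of WT and STK19_KO1 lay above their DMSO libraries. CLK1 was at 44.3, 37.0 and 40.8 CPM with DMSO and 86.9, 82.6 and 79.6 CPM with ATRi in WT, and its changes were 1.03 (WT), 0.58 (CSB_KO), 0.97 (STK19_KO1) and 0.88 (STK19_KO2). CLK3 changed by 0.70 (WT), 0.39 (CSB_KO), 0.42 (STK19_KO1) and 0.69 (STK19_KO2) and CLK2 by 0.28 (WT), 0.19 (CSB_KO), -0.03 (STK19_KO1) and 0.29 (STK19_KO2), CLK2 without a call in STK19_KO1. TRA2A was at 60.7, 60.6 and 67.5 CPM with DMSO and 131, 143 and 142 CPM with ATRi in WT, without overlap, and changed by 1.14 (WT), 0.27 (CSB_KO), 1.22 (STK19_KO1) and 1.15 (STK19_KO2). TRA2B changed by 0.80 (WT), 0.13 (CSB_KO), 1.03 (STK19_KO1) and 0.91 (STK19_KO2), the CSB_KO value without a call.

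SRSF10, an SR-like splicing repressor whose activity depends on phosphorylation, was at 275, 246 and 257 CPM with DMSO and 539.6, 538 and 538 CPM with ATRi in WT and changed by 1.05 (WT), 0.37 (CSB_KO), 1.17 (STK19_KO1) and 0.95 (STK19_KO2). SRSF6 was at 231, 211 and 229 and 494, 486 and 485 CPM in WT, so that its ATRi libraries lay above those of DMSO and above those of 0 h. Its changes were 1.13 (WT), 0.22 (CSB_KO), 0.94 (STK19_KO1) and 0.81 (STK19_KO2), and those of SRSF7 were 0.90 (WT), 0.32 (CSB_KO), 0.84 (STK19_KO1) and 0.74 (STK19_KO2). SRSF2 rose by 0.91 in WT, 0.54 in STK19_KO1 and 0.37 in STK19_KO2 and was lower in CSB_KO (-0.16). SRSF1 changed by 0.33 (WT), 0.28 (CSB_KO), 0.69 (STK19_KO1) and 0.60 (STK19_KO2) and SRSF3 by 0.25 (WT), 0.01 (CSB_KO), 0.28 (STK19_KO1) and 0.30 (STK19_KO2), SRSF3 without a call in CSB_KO and, under library size alone, in WT. SRSF12, the SR gene with the lowest counts, went the other way, with -0.81 in WT, -0.88 in STK19_KO1 and -0.75 in STK19_KO2. Its value in CSB_KO was 0.14 and was not called.

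HNRNPA1 fell further with ATRi. It was at 1795, 1779 and 1738 CPM with DMSO and 813, 781 and 801 CPM with ATRi in WT (-1.15 ± 0.05, adjusted p = 3.51e-26 by edgeR), and at 1127, 1112 and 1101 and 878, 800.3 and 781 CPM in CSB_KO (-0.44 ± 0.05). The ATRi libraries lay below the DMSO libraries in both lines, and the changes in STK19_KO1 and STK19_KO2 were -0.96 and -0.78. HNRNPA3 changed by -0.66 (WT), -0.05 (CSB_KO), -0.42 (STK19_KO1) and -0.40 (STK19_KO2), without a call in CSB_KO, and HNRNPH1, a binder of guanine runs, by 0.51 (WT), 0.36 (CSB_KO), 0.97 (STK19_KO1) and 1.07 (STK19_KO2). HNRNPDL was called higher in CSB_KO (0.42) and STK19_KO2 (0.35) alone. PTBP2 was at 16.2, 16.3 and 16.3 CPM with DMSO and 45.3, 42.4 and 48.6 CPM with ATRi in STK19_KO1, without overlap, and changed by 0.88 (WT), 0.24 (CSB_KO), 1.48 (STK19_KO1) and 1.54 (STK19_KO2). The CSB_KO value of PTBP2 was lost as a call without replicate 2 with DMSO or replicate 1 with ATRi. PTBP3 changed by -0.84 (WT), -0.35 (CSB_KO), -0.29 (STK19_KO1) and -0.32 (STK19_KO2). PTBP1 was higher in WT (0.24, not called under library size alone), STK19_KO1 (0.44) and STK19_KO2 (0.34).

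**Figure D5:**
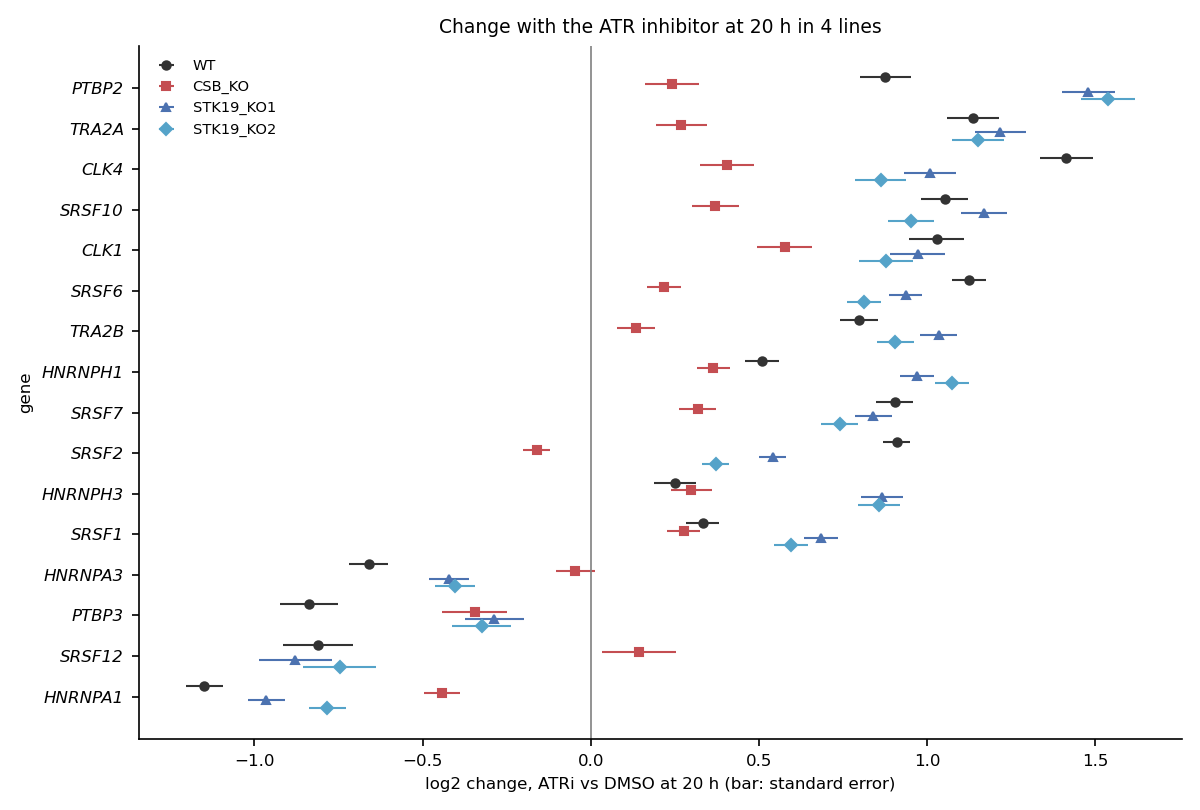
Log2 change with ATRi against DMSO at 20 h for 16 members in the 4 lines, as points with bars of 1 SE. Most points of CSB_KO lie nearer 0 than those of WT, such as CLK4 at 0.41 against 1.41 and TRA2A at 0.27 against 1.14.

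The smaller change in CSB_KO was tested as an interaction. With ATRi at 20 h 11 members changed more positively in CSB_KO than in WT and 18 more negatively, beside 24.7% and 26.9% of all genes, and 17 and 14 under library size alone. SRSF2 (-1.07 ± 0.06, adjusted p = 4.95e-23 by edgeR), CLK4 (-1.01 ± 0.11, adjusted p = 2.95e-11) and SRSF6 (-0.91 ± 0.07) were the most negative. HNRNPA1L3 (1.04 ± 0.24), SRSF12 (0.95 ± 0.15) and HNRNPA1 (0.71 ± 0.08) were the most positive. For the STK19 lines 13 and 13 were called, beside 20.7% and 20.2%. PTBP2 (0.63 ± 0.09), HNRNPH3 (0.61 ± 0.08) and PTBP3 (0.53 ± 0.11) were the most positive, and SRSF4 (-0.54 ± 0.06), HNRNPL (-0.48 ± 0.04) and CLK4 (-0.48 ± 0.09) the most negative. The 20 h DMSO libraries enter both these contrasts and those of 20 h against 0 h, so the values of the 2 sets are not independent. SRSF6 in CSB_KO, for example, was at 484, 504 and 485 CPM with DMSO and 578, 573 and 562 CPM with ATRi, whereas WT held 231, 211 and 229 and 494, 486 and 485 CPM.

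Genes that act with these regulators were read in the same fit. Of 11 genes for other kinases, phosphatases, importers and exporters of SR proteins, 2 were higher and 5 lower at 3 h in WT, beside 33.6% and 28.8% of all genes, and 2 and 8 in STK19_KO1, beside 29.9% and 30.6%. NXF1, the messenger RNA export receptor that SR proteins recruit, rose by 1.46 (WT), 1.02 (CSB_KO), 1.34 (STK19_KO1) and 1.44 (STK19_KO2) at 3 h and by 0.39 (WT), 2.62 (CSB_KO), 1.8 (STK19_KO1) and 2.07 (STK19_KO2) at 20 h. SRPK2, a cytoplasmic kinase of SR tails, changed by -0.60 (WT), -0.55 (CSB_KO), -0.96 (STK19_KO1) and -0.92 (STK19_KO2) at 3 h and -0.22 (WT), -1.56 (CSB_KO), -0.96 (STK19_KO1) and -1.21 (STK19_KO2) at 20 h. DYRK1A, which phosphorylates splicing factors in speckles, changed by -1.87 (WT), -2.15 (CSB_KO), -1.59 (STK19_KO1) and -1.54 (STK19_KO2) at 3 h. Of 32 genes of the core spliceosome, 28 were higher and 2 lower at 3 h in WT (median 0.30, beside 0.06 over all genes). For CSB_KO these counts were 24 and 4, for STK19_KO1 16 and 5, and for STK19_KO2 14 and 5. The shares of all genes were 32% and 29.3% in CSB_KO and 29.1% and 28.5% in STK19_KO2, and as given above in the other lines. Library size alone gave 11 and 3 in WT and 14 and 5 in CSB_KO. At 20 h with DMSO the counts were 8 and 8 in WT and 20 and 8 in CSB_KO, and under library size alone 12 and 8, and 16 and 12. The shares of all genes were 30% and 25.4% in WT, with the WT counts near them, and 38.3% and 40.5% in CSB_KO. SF3B4, a subunit of the U2 particle, changed by 0.12 (WT), 1.63 (CSB_KO), 0.94 (STK19_KO1) and 1.15 (STK19_KO2) at 20 h, the WT value without a call, and SF3B3 of the same particle by -0.16 (WT), -1.86 (CSB_KO), -0.97 (STK19_KO1) and -0.79 (STK19_KO2).

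Other regulators of alternative splicing gave 40 tested rows for 39 genes, since MATR3 has a pair of rows. Of these 15 were higher and 12 lower at 3 h in WT, shares near the 33.6% and 28.8% of all genes, and 6 and 21 under library size alone. In STK19_KO2 7 and 20 were called, beside 29.1% and 28.5%. MBNL2, a muscleblind protein, changed by -1.63 (WT), -1.74 (CSB_KO), -1.67 (STK19_KO1) and -1.46 (STK19_KO2), and RBM4 rose by 0.63 (WT), 0.54 (CSB_KO), 0.73 (STK19_KO1) and 0.79 (STK19_KO2). At 20 h with ATRi 17 were higher and 10 lower in WT and 10 and 4 in CSB_KO, beside 30.2% and 33.7%, and 14.1% and 17.5%. Library size alone gave 13 and 12 in WT. RBM10 changed by 0.95 (WT), 0.27 (CSB_KO), 0.65 (STK19_KO1) and 0.61 (STK19_KO2) with ATRi, and DDX17, a helicase in splicing complexes, by -1.14 (WT), 0.40 (CSB_KO), -0.62 (STK19_KO1) and -0.17 (STK19_KO2). Of 10 genes of nonsense-mediated decay, 6 were higher and 1 lower with ATRi at 20 h in WT. For CSB_KO these counts were 2 and 2, for STK19_KO1 8 and 1, and for STK19_KO2 7 and 1. The shares of all genes were 31.5% and 30.1% in STK19_KO1, 30.5% and 27.7% in STK19_KO2, and as just given in the other lines. Library size alone gave 5 and 2 in WT and 2 and 1 in CSB_KO. SMG9, a partner of the kinase SMG1, changed by 1.17 (WT), 0.38 (CSB_KO), 0.82 (STK19_KO1) and 0.94 (STK19_KO2). All of these lists were chosen with earlier results of these data known.

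Gene span, the distance from start to end of a gene, differs between the members and the rest. Its median was 21.3 kb over the 44 members and 32.7 kb over all tested genes. Across the 44 members the log2 change at 3 h in WT had a Pearson r of -0.169 with log2 span and a Spearman rho of -0.197, beside -0.402 and -0.501 across all 15470 tested genes. In STK19_KO2 the same values were -0.159 and -0.294, beside -0.473 and -0.596. At 20 h with DMSO they were 0.03 and 0.145 in WT and -0.322 and -0.26 in CSB_KO, beside -0.408 and -0.418 and -0.479 and -0.561. These are descriptions across genes, which share the libraries and are not replicates. HNRNPA1, with a span of 6.9 kb, fell at 20 h in all 4 lines, and so did HNRNPM with 44.3 kb. PTBP3 and PTBP2, the members with the longest spans at 116 and 102 kb, were the most negative differences from WT at 20 h in CSB_KO and in the STK19 lines respectively.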

How the data were processed

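Polyadenylated RNA of 72 libraries was sequenced from NEBNext Ultra II Directional libraries, per the labels' protocols. The deposited values are expected counts of reads per gene that are whole numbers in the table; STAR, RSEM and GRCh38 appear in the submitters' processing notes with no versions and no order. No annotation release is given in the sources used here.

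Genes were kept by filterByExpr (minimum count 10, minimum total 15), which left 15470 of 19324, and scaling factors were the trimmed mean of M values (TMM). A single quasi-likelihood model in edgeR 4.0.16 (R 4.3.3, limma 3.58.1) held the 72 libraries with 1 coefficient for each of 24 groups. It was also run on counts simulated from its own fit, drawn independently and with no library set apart. Calls used an adjusted p under 0.05 (Benjamini-Hochberg) over all tested genes. CPM in the text are scaled by TMM. Members, lists and tests were chosen with earlier results of these data known. For each comparison over the lines the 5 largest mean changes each way were picked for naming. For each knockout at 0 h 4 each way were picked, and for each interaction 3 each way. CLK1, CLK4, SRSF1, SRSF3, SRSF7, HNRNPA1, HNRNPDL, PTBP1, PTBP2, TRA2A and TRA2B were picked for all comparisons but the interactions. Not every picked value is printed, and many are left out at 4 h with DMSO, from 4 h to 20 h and with ATRi at 4 h.

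Alternatives were other filters, relative log expression factors, library size alone, DESeq2 1.42.0, only the groups compared, a replicate block, and leaving out libraries. Exon lengths and transcript classes came from GENCODE 29, and promoter stretches from RefSeq (GRCh38.p14). Protein sequences were not used here.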

Additional observations from a re-analysis of the deposited data

Results flagged for a closer look

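The values in this section are differences between lines in the same contrast, as log2 change in the knockout minus that in WT, which passed edgeR's quasi-likelihood test (Benjamini-Hochberg over all genes) and are the 3 largest calls each way. Groups hold 3 libraries, and the gap between 1 library and the others was not tested in groups of that size, so the 5 libraries that lay apart are named in the report by their chi-square values alone. All of them share WT libraries.

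At 20 h with DMSO against 0 h, CSB_KO differed from WT by 1.26 for SRSF6, 1.11 for HNRNPA0, 1.08 for SRSF2, -0.91 for HNRNPLL, -1.15 for HNRNPDL and -1.85 for PTBP3. In the same contrast the mean of the STK19 lines differed by 0.92 for HNRNPH2, 0.69 for HNRNPF, 0.62 for SRSF6, -0.68 for PTBP3, -0.69 for HNRNPA2B1 and -1.02 for PTBP2.

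For ATRi against DMSO at 20 h, the differences in CSB_KO were 1.04 for HNRNPA1L3, 0.95 for SRSF12, 0.71 for HNRNPA1, -0.91 for SRSF6, -1.01 for CLK4 and -1.07 for SRSF2. HNRNPA1L3 is a near copy of HNRNPA1 and may hold its reads. In the STK19 lines they were 0.63 for PTBP2, 0.61 for HNRNPH3, 0.53 for PTBP3, -0.48 for CLK4, -0.48 for HNRNPL and -0.54 for SRSF4. For ATRi at 4 h the only difference called was -0.23 for HNRNPA0 in CSB_KO, lost without replicate 1 of WT with DMSO.

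For 3 h against 0 h, CSB_KO differed by -0.31 for SRSF6, -0.33 for SRSF11 and -0.35 for CLK4. The STK19 lines differed by 0.36 for CLK3, -0.37 for SRSF11, -0.37 for TRA2B and -0.41 for CLK1. Without replicate 1 of WT at 3 h the calls of SRSF11 in both, of CLK4 and of CLK1 were lost.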

How the results depend on the processing

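The counts of called members rested most on the scaling. Under library size alone, at 0 h STK19_KO1 had 8 higher and 13 lower. At 3 h WT had 13 and 14, CSB_KO 14 lower, the CSB_KO difference from WT 1 and 1 and the STK19 difference 10 and 1. At 4 h with DMSO WT had 11 and 13, and CSB_KO 13 lower. At 20 h the CSB_KO difference gave 12 and 23. From 4 h to 20 h WT had 13 and CSB_KO 7 higher. With ATRi WT had 4 and STK19_KO1 2 higher at 4 h, and the CSB_KO difference 17 higher at 20 h. Of 864 calls of a member in a contrast, 734 were the same under it, 108 were lost in the same direction and 22 turned direction. Of those 22, 4 were called the other way: CLK2 and SRSF2 at 20 h in CSB_KO, and HNRNPL and HNRNPU at 3 h in WT. Some genes named for a comparison by the fixed rule turned and were called under at least 1 of these scalings. At 3 h in WT these were CLK4 (-0.191), SRSF3 (-0.034) and PTBP1 (-0.013), and at 4 h in CSB_KO TRA2B (-0.121). From 4 h to 20 h in WT they were HNRNPF (0.203), SRSF1 (0.105), SRSF3 (0.091), HNRNPDL (0.257) and PTBP2 (0.193). Turns without a call under either scaling are not listed. The cause was not tested. Leaving out 1 library at a time gave SRSF3 at 3 h in WT values from -0.028, without replicate 1 at 3 h, to 0.27.

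With only the groups compared in the fit, which leaves fewer libraries to estimate the spread, the counts were 9 higher in STK19_KO1 and 4 in STK19_KO2 at 0 h, 13 higher and 2 lower in WT at 3 h, 0 and 2 lower for the CSB_KO and STK19 differences at 3 h, and 9 lower in CSB_KO at 4 h. They were 14 higher in STK19_KO1 at 20 h, 17 higher in CSB_KO from 4 h to 20 h, and with ATRi at 4 h 7 higher and 12 lower in CSB_KO and 0 higher in STK19_KO1. DESeq2 and relative log expression factors each gave 17 higher in CSB_KO from 4 h to 20 h, and testing without the low-count filter 8 lower for the CSB_KO difference at 3 h.

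Without the libraries that lay apart STK19_KO2 had 13 higher at 0 h, WT 8 lower at 3 h, the CSB_KO difference 3 lower and the STK19 difference 3 higher at 3 h. With ATRi at 4 h WT had 9 higher, STK19_KO2 1 higher, CSB_KO 5 higher and 8 lower, and the differences 1 higher and 5 lower for CSB_KO and 1 lower for STK19.

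Leaving out 1 library at a time gave 5 to 11 lower in CSB_KO, 10 to 18 higher in STK19_KO1 and 4 to 9 higher in STK19_KO2 at 0 h. It gave 2 to 7 lower in WT at 3 h and 3 to 5 lower in CSB_KO at 4 h. The differences at 3 h had 0 to 1 higher and 1 to 8 lower for CSB_KO, and 1 to 4 higher and 9 to 24 lower for STK19. With ATRi at 4 h CSB_KO had 1 to 2 each way, STK19_KO1 0 to 1 higher, and the CSB_KO difference 0 to 1 lower. In all 530 such counts stayed within 1.5 times the value given in the text and 34 did not.

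Replicate numbers carry no stated pairing. Same-numbered libraries deviated together, with every pair's correlation over 0.1, in 3 of 27 contrasts (correlations from -0.133 to 0.704). These were WT at 3 h against 0 h (0.703, 0.494 and 0.569), WT at 4 h with DMSO against 0 h (0.704, 0.248 and 0.506) and STK19_KO1 with ATRi at 4 h (0.273, 0.142 and 0.139). Libraries were tested as unpaired. The replicate block holds effects of replicate numbers shared by all lines, so it cannot model a pairing within WT alone. With a replicate block WT had 1 and STK19_KO1 2 higher with ATRi at 4 h, and the STK19 difference 2 higher at 3 h, and the other 67 counts stayed within 1.5 times. HNRNPCL1 to HNRNPCL4 were too low to test. Of the 44 tested members HNRNPA1L2 was lowest, with 111 counts in its poorest library, and its changes had the largest SEs.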
